A study of Mus musculus with 8 samples.

Results

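The 10 genes described here encode enzymes that hydroxylate collagen inside the cell and cross-link it outside. They are the lysyl oxidases Lox, Loxl1, Loxl2, Loxl3 and Loxl4, the prolyl 4-hydroxylase alpha subunits P4ha1, P4ha2 and P4ha3, and the lysyl hydroxylases Plod1 and Plod2. Members were chosen by gene symbol, and all 10 were found, once each, among 22518 genes of the table. The samples were whole hearts of C57BL/6 mice at postnatal day 12. One group was 4 libraries of wild type littermates. The other was 4 libraries of mice labelled as endothelial knockouts of PHD2 and PHD3, the oxygen-sensing prolyl hydroxylases encoded by Egln1 and Egln3. A heart below means a heart library. The labels used here give neither the driver of the endothelial deletion nor whether a library stands for an animal of its own, and p-values then reflect the spread of these libraries, which may be technical.

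Collagen chains are modified in the endoplasmic reticulum before they fold. Prolyl 4-hydroxylase, a complex of alpha subunits with the P4HB protein, hydroxylates prolines and so keeps the triple helix stable at body temperature. Lysyl hydroxylases modify lysines that later take part in cross-links. Lysyl oxidases are secreted copper enzymes that oxidise lysines of collagen and elastin, after which the fibres cross-link. Both kinds of hydroxylase need oxygen, iron, 2-oxoglutarate and ascorbate, as the PHD enzymes do, and several genes of these families are known targets of hypoxia-inducible factors (HIF).

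Values are quantile-normalised FPKM, a level per transcript length, so genes can be compared within a library, and sequencing depth is unknown. Means are given ± SD with n = 4 per group, a fold divides mean FPKM values, and a log2 change, ± SE, is the knockout minus wild type difference on the log2(FPKM + 1) scale, which understates low genes. Of all genes, 11390 averaged 1 FPKM or more across the 8 hearts and entered the limma fit, among them 9 of the 10 members. A gene was called at a Benjamini-Hochberg adjusted p under 0.05 over all tested genes. The targeted genes overlapped between groups. Egln1 lay at 45.2 to 57.9 FPKM in wild type and 52.6 to 63.5 FPKM in knockout hearts (limma adjusted p = 0.442), and Egln3 at 17.96 to 38.7 and 32.6 to 52.8 FPKM (adjusted p = 0.132). Gene-level values of whole hearts, in which most cells are not endothelial, do not check the genotype, which rests on the labels. In such bulk samples fewer cells of a type and less RNA per cell cannot be told apart. Airway and alveolar markers summed to 1298 FPKM in wild type replicate 4 and to at most 0.501 FPKM in each other library. Knockout replicate 4 carries a library number outside the run of the rest, and it held the lowest knockout value of 6 of 7 tested fibril-forming collagens and 7 of 12 collagen chaperone and export genes, but of 3 of the 9 tested members, against 32.1% of all tested genes.

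Promoter sequences are shown for P4ha1 and P4ha2 because these paralogs, the main alpha subunits in these hearts, differed in their calls. They were not found to differ in their change, as given below. The RefSeq table (GRCm38.p6) matched 5 of the 10 members, P4ha1, P4ha2, P4ha3, Plod1 and Loxl4. The called genes Lox, Loxl2 and Plod2 were not matched and have no window here. The 250 bases before the annotated start are printed 5′ to 3′ on the strand of the gene, with capitals for ACGTG or GCGTG on either strand (CACGT or CACGC when read on the other), the core letters that HIF recognises. The P4ha1 window is chr10:59323046-59323295 and the P4ha2 window chr11:54100674-54100923, both on the plus strand. Each window ends at the RefSeq start. For P4ha1 that is the start of the GENCODE gene given with the values, but for P4ha2 it lies 829 bases downstream of that gene's start, so the P4ha2 window is inside the gene as annotated by GENCODE, in which 1 of 15 P4ha2 transcripts starts at the RefSeq position and 1 upstream of it.
P4ha1: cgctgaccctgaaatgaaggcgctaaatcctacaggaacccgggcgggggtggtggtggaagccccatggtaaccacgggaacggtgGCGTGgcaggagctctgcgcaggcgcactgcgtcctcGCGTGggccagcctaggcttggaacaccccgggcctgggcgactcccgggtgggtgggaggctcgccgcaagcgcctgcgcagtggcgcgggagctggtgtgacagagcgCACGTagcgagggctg
P4ha2: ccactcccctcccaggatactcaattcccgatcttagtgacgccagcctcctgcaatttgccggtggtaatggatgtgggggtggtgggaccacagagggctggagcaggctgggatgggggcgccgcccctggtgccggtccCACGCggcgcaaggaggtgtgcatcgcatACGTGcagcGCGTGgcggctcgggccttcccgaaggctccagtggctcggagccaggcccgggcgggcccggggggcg
Each window held 3 matches, 1 of ACGTG and 2 of GCGTG. Those of P4ha1 began 163, 126 and 16 bases before the start and those of P4ha2 107, 78 and 69 bases before it. Plod1 and Loxl4 had 1 match each, a GCGTG, and P4ha3 had 0. Of 32851 windows of 250 bases in the same table, 16.6% held ACGTG, 28.2% GCGTG, 38.6% at least 1 of them and 6.58% at least 3. A match describes letters and is not evidence that a factor binds.

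All 10 members had a higher mean in knockout than in wild type hearts, and 4 of the 9 tested ones were called raised and 0 lowered. The raised genes were Lox, Loxl2, P4ha2 and Plod2. Over all tested genes 6.15% were called raised and 6.01% lowered. Under a stricter test of a change above 1.5-fold, 0 members were called, and the stability of single calls is given over the other alternatives. The median log2 change of the 9 tested members was 0.41, and that of all tested genes -0.01. One of the 9, P4ha3, passed the filter only through its knockout values, and the median of the other 8 was 0.36. Among those other 8, the 4 knockout values lay above the 4 wild type values in the 4 raised genes, against 10.3% of all tested genes. The groups were also apart in P4ha3, which is left out of that count because its knockout values brought it into testing. The same held for Loxl4, which was under the filter. The members were chosen with earlier results of these data known, and an earlier list of hypoxia-responsive genes held Loxl2.

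**Figure D1:**
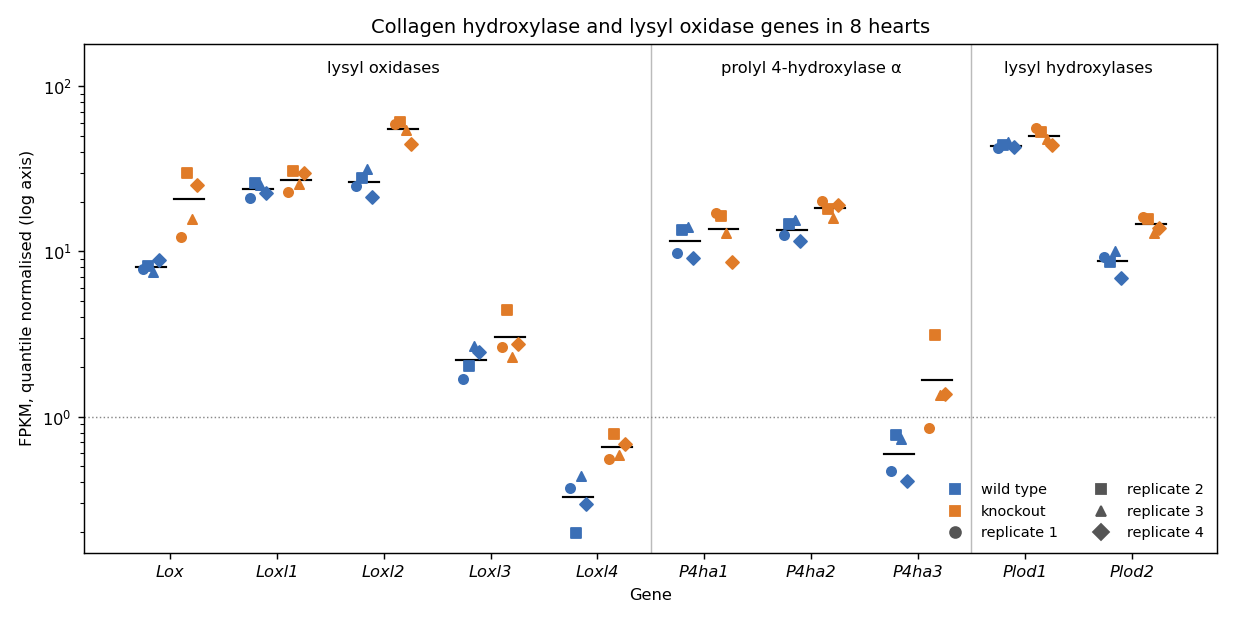
FPKM on a log axis of the 10 genes; each symbol is 1 heart library (blue wild type, orange knockout, shape the replicate number), black lines are means of 4, and the dotted line is 1 FPKM, the minimum mean for testing. Knockout symbols lie wholly above wild type symbols for Lox, Loxl2, Loxl4, P4ha2, P4ha3 and Plod2 and overlap them for the other 4 genes.

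Loxl2 was the most abundant lysyl oxidase in both groups by mean and had the smallest adjusted p of the members. Its product cross-links collagen IV of basement membranes. Loxl2 (ENSMUSG00000034205; mm10 chromosome 14, 69609068 to 69695834, plus strand) stood at 25.0, 27.7, 31.3 and 21.3 FPKM across wild type replicates 1 to 4, against 59.2, 60.5, 54.4 and 44.9 FPKM across knockout replicates 1 to 4. The lowest knockout heart, replicate 4, lay well above the highest wild type heart, replicate 3. The mean rose 2.08-fold, from 26.3 ± 4.23 to 54.7 ± 7.07 FPKM (log2 change 1.03 ± 0.13, limma adjusted p = 0.00200). Its exons share 301 bases with an antisense gene, and the strandedness of the quantification is not given in the sources used here.

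Lox rose by a similar amount but varied far more among knockout hearts. It encodes the founding lysyl oxidase, which acts on fibrillar collagens and elastin. Lox (ENSMUSG00000024529; chromosome 18, 52516067 to 52529867, minus strand) was at 7.86, 8.16, 7.55 and 8.82 FPKM across wild type hearts, against 12.2, 29.9, 15.7 and 25.3 FPKM across knockout hearts. Wild type hearts were tightly grouped, whereas knockout replicates 2 and 4 were high and replicate 1 the lowest of its group. The mean rose 2.57-fold, from 8.10 ± 0.543 to 20.8 ± 8.24 FPKM (log2 change 1.18 ± 0.24, adjusted p = 0.0145). Without both replicates 4 the call was lost (adjusted p = 0.0523).

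Loxl1, which is tied to elastic fibre upkeep, was nearly as abundant as Loxl2 in the wild type but did not pass the test. It was at 21.1, 25.9, 25.2 and 22.7 FPKM across wild type hearts, against 23.0, 30.5, 25.6 and 29.7 FPKM across knockout hearts. The groups overlapped, with a log2 change of 0.18 (95% confidence interval -0.06 to 0.43, adjusted p = 0.281). Loxl3, a paralog with scavenger receptor domains like Loxl2, was low, at 1.68, 2.01, 2.67 and 2.46 FPKM across wild type hearts, against 2.62, 4.43, 2.28 and 2.77 FPKM across knockout hearts. Knockout replicate 2 was high and the remaining knockout hearts lay within or close to the wild type range (log2 change 0.31, interval -0.05 to 0.68, adjusted p = 0.232). Its exons share 535 bases with Htra2 on the opposite strand. Loxl4 was at 0.369, 0.197, 0.435 and 0.296 FPKM across wild type hearts, against 0.554, 0.787, 0.590 and 0.685 FPKM across knockout hearts. These groups did not overlap, but the gene was under the filter. Tested without any filter it had a log2 change of 0.32 ± 0.07 (adjusted p = 0.0444).

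Of the lysyl hydroxylases, Plod2 rose and Plod1 did not pass the test. PLOD2 hydroxylates lysines of the collagen telopeptides, the ends from which hydroxylysine cross-links form, and PLOD1 acts on lysines of the helix. Plod2 (ENSMUSG00000032374; chromosome 9, 92542223 to 92608428, plus strand) was at 9.20, 8.65, 10.04 and 6.95 FPKM across wild type hearts, against 16.05, 15.8, 12.8 and 13.9 FPKM across knockout hearts. Every knockout heart exceeded every wild type heart, and the mean rose 1.68-fold, from 8.71 ± 1.31 to 14.6 ± 1.53 FPKM (log2 change 0.69 ± 0.12, adjusted p = 0.00628). Its exons share 346 bases with an unverified gene model on the opposite strand.

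Plod1, the most abundant member in wild type hearts, was at 42.5, 44.0, 45.7 and 42.7 FPKM across wild type hearts, against 55.9, 52.6, 47.7 and 44.0 FPKM across knockout hearts. Knockout replicates 1, 2 and 3 lay above the wild type range and replicate 4 within it. The log2 change was 0.18 (95% confidence interval -0.01 to 0.38, adjusted p = 0.180, and 0.0627 without knockout replicate 4). Plod3, the lysyl hydroxylase that also transfers sugars, was at 17.7 ± 1.30 FPKM in wild type hearts, compared with 20.4 ± 2.25 FPKM in knockouts (adjusted p = 0.199).

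Among prolyl 4-hydroxylase subunits, P4ha2 was called and P4ha1 and P4ha3 were not. Each alpha subunit carries the catalytic site. P4ha2 (ENSMUSG00000018906; chromosome 11, 54100095 to 54131665, plus strand) was at 12.5, 14.7, 15.5 and 11.6 FPKM across wild type hearts, against 20.2, 18.03, 16.04 and 19.1 FPKM across knockout hearts. The groups were separated by a small gap, between wild type replicate 3 and knockout replicate 3. The mean rose 1.35-fold, from 13.6 ± 1.84 to 18.3 ± 1.76 FPKM (log2 change 0.41 ± 0.11, adjusted p = 0.0382). This call was the least stable of the 4. It was lost in 6 of 8 omissions of 1 library, those of wild type replicates 1, 2 and 4 and knockout replicates 1, 2 and 4, and under 4 other alternatives, with an adjusted p up to 0.113, besides the minimum change of 1.5-fold (adjusted p = 1).

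P4ha1 (chromosome 10, 59323296 to 59373304), which encodes the main alpha subunit of most tissues, was at 9.77, 13.5, 13.98 and 9.18 FPKM across wild type hearts, against 17.1, 16.3, 12.9 and 8.67 FPKM across knockout hearts. Knockout replicates 1 and 2 were the highest of the 8 hearts and knockout replicate 4 the lowest. The log2 change was 0.20 (95% confidence interval -0.26 to 0.67, adjusted p = 0.545, and 0.138 without knockout replicate 4). That interval includes the change of P4ha2. P4ha3 was at 0.468, 0.771, 0.729 and 0.407 FPKM across wild type hearts, against 0.857, 3.10, 1.35 and 1.37 FPKM across knockout hearts. Its groups did not overlap, and knockout replicate 2 was the highest by far. The mean was 2.81-fold higher, but the gene did not pass the test (log2 change 0.69 ± 0.22, adjusted p = 0.0665). P4ha3 was tested only because of its knockout values. Without knockout replicate 2 it averaged 0.850 FPKM and dropped out of testing, whereas without knockout replicate 1 the adjusted p was 0.0248 and with array weights 0.0274.

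In order of mean level the wild type hearts ranked Plod1 at 43.7, Loxl2 at 26.3, Loxl1 at 23.7, P4ha2 at 13.6, P4ha1 at 11.6, Plod2 at 8.71, Lox at 8.10, Loxl3 at 2.20, P4ha3 at 0.594 and Loxl4 at 0.324 FPKM. Neighbours overlapped for Loxl2 and Loxl1, for P4ha2 and P4ha1, P4ha1 and Plod2, Plod2 and Lox, and P4ha3 and Loxl4. The remaining neighbours were apart. In knockout hearts Loxl2 overlapped Plod1 and no longer overlapped Loxl1.

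The genes did not all have the same order among knockout hearts. Each of the 5 lysyl oxidases and P4ha3 had its highest knockout value in replicate 2, whereas P4ha1, P4ha2, Plod1 and Plod2 had theirs in replicate 1. Some gaps were small, with Loxl2 at 60.5 FPKM in replicate 2 and 59.2 FPKM in replicate 1, and Plod2 at 15.8 and 16.05 FPKM. They were larger for Loxl3 and P4ha3. Loxl2 was lowest in replicate 4, as were P4ha1 and Plod1. Of all tested genes 17.2% were highest in knockout replicate 2 and 30.4% in replicate 1. Knockout replicate 1 was the lowest of its group for Lox, Loxl1, Loxl4 and P4ha3. Among wild type hearts, replicate 3 was highest for 7 of 10 members and replicate 4 lowest for 5, namely Loxl2, P4ha1, P4ha2, P4ha3 and Plod2. Wild type replicate 4 is the library with the airway markers. The share over all tested genes was not taken for wild type hearts, so these counts describe the listed values only.

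Shares within a family did not overlap between groups for Loxl1 and for the lysyl hydroxylases, and overlapped for the 3 alpha subunits. The share of summed lysyl oxidase FPKM held by Loxl1 was 39.1% ± 1.78 in wild type and 25.6% ± 2.33 in knockout hearts, with 37.5% the lowest wild type and 28.7% the highest knockout share. Loxl2 held 43.2% ± 3.52 in wild type and 51.8% ± 7.64 in knockout hearts, and these shares overlapped. Lox held 13.5% ± 1.97 and 19.2% ± 5.89, also with overlap. Plod2 made up 16.6% ± 1.85 of the summed Plod1 and Plod2 level in wild type and 22.6% ± 1.17 in knockout hearts, with no overlap. P4ha1 held 44.8% ± 1.90 of the alpha subunit level in wild type hearts and 44.9%, 43.6%, 42.5% and 29.8% in knockout replicates 1 to 4, so that replicate 4 stood apart.

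**Figure D2:**
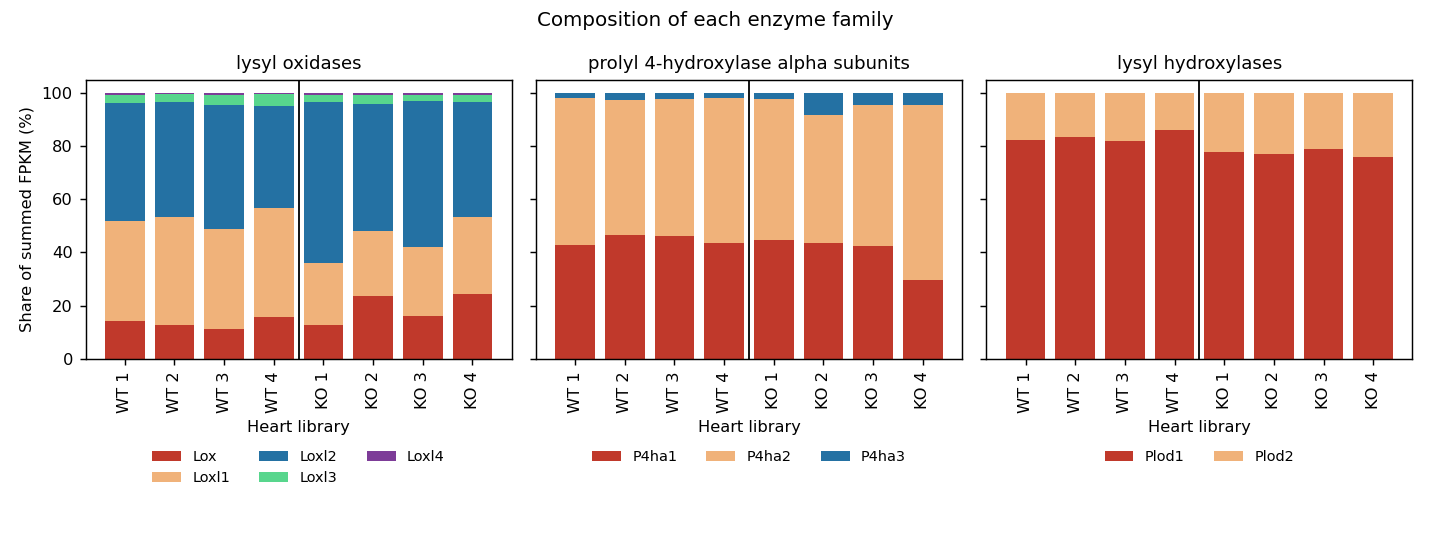
Share of summed FPKM (%) held by each gene of the 3 families in each heart library, wild type (WT) left and knockout (KO) right of the vertical line. The Loxl1 share is smaller and the Plod2 share larger in each knockout library, and the P4ha1 share falls to 29.8% in knockout replicate 4. The mean FPKM of Loxl1 is not lower in knockout hearts.

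Whether paralogs differed in their change was tested on the within-heart difference of log2(FPKM + 1), for the 10 pairs of tested genes within a family. The test was an exact permutation test, two-sided, over the 70 label assignments. In 5 pairs the groups did not overlap. Their p was 0.0286, the smallest that this test can give (adjusted p = 0.0571 over the 10 pairs). With 5 of 10 pairs at that smallest value no pair could pass after adjustment, so the 0 that passed depends on the number of pairs entered. The 10 include P4ha1 minus P4ha3 and P4ha2 minus P4ha3, though P4ha3 was tested only because of its knockout values. An unadjusted p under 0.05 was found in 5 pairs. That count was 4 with a pseudocount of 0.1 FPKM and 3 with none, when Lox minus Loxl3 (exact p = 0.0571) and Loxl2 minus Loxl3 (exact p = 0.0857) were above it. Loxl1 minus Loxl2 went from -0.14 ± 0.17 in wild type to -0.98 ± 0.31 in knockout hearts (n = 4 each), and Lox minus Loxl1 from -1.44 ± 0.17 to -0.44 ± 0.39. Lox minus Loxl3 and Loxl2 minus Loxl3 were higher in the knockout by 0.87 and 0.72. Plod1 minus Plod2 went from 2.21 ± 0.18 to 1.71 ± 0.09. For Lox minus Loxl2 the exact p was 0.686, with differences of -1.92 to -1.18 in wild type and -2.19 to -0.80 in knockout hearts. For P4ha1 minus P4ha2 it was 0.571, with differences of -0.32 to -0.11 in wild type and -1.05 to -0.14 in knockout hearts.

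Of 10 other collagen-modifying enzymes of the endoplasmic reticulum, 1 was raised, 2 were lowered and 7 were not called. The raised gene was Leprel1, which encodes prolyl 3-hydroxylase P3H2, at 1.62 ± 0.389 FPKM in wild type hearts, compared with 3.12 ± 0.559 FPKM in knockouts (log2 change 0.66 ± 0.14, adjusted p = 0.0163). Glt25d2, which encodes the collagen galactosyltransferase COLGALT2, fell from 3.44 ± 0.143 to 1.87 ± 0.466 FPKM (adjusted p = 0.00827). Leprel4, a partner of lysyl hydroxylation, fell 1.52-fold (adjusted p = 0.0480). That call did not hold in 7 of the 8 leave-one-out fits, each but that without knockout replicate 2 (adjusted p up to 0.157 over the alternatives with no minimum change). P4hb, the partner of the alpha subunits, was at 111, 110, 109 and 115 FPKM across wild type hearts, against 136, 161, 134 and 111 FPKM across knockout hearts. Knockout replicate 4 alone fell within the wild type range, and the gene was not called (log2 change 0.27 ± 0.10, adjusted p = 0.119). Without that library it was (adjusted p = 0.0198).

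Of 12 tested chaperone and export genes, 1 rose, 0 fell and 11 did not pass. Over all tested genes 12.2% were called in either direction. Fkbp14, a prolyl isomerase of the endoplasmic reticulum, rose 1.64-fold to 11.1 ± 2.45 FPKM (adjusted p = 0.0205), and its call was lost on omission of wild type replicate 1, 2 or 4 or knockout replicate 2. Serpinh1, the collagen chaperone HSP47, was at 202 ± 21.0 FPKM in wild type hearts, compared with 171 ± 36.3 FPKM in knockouts (adjusted p = 0.290). Of 10 tested genes of procollagen processing and lysyl oxidase activation, 2 rose and 0 fell. Adamts2, which removes procollagen amino-propeptides, rose 1.43-fold (adjusted p = 0.0282), and Fn1, the fibronectin that binds lysyl oxidase, rose 1.65-fold (adjusted p = 0.0371). Neither call held on omission of wild type replicate 1, 2 or 4 or knockout replicate 2. That of Adamts2 was also lost without wild type replicate 3, and that of Fn1 without knockout replicate 1 or 3. For copper and ascorbate supply, 0 of 6 tested genes were called in either direction, too few genes to set apart from that 12.2%.

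**Figure D3:**
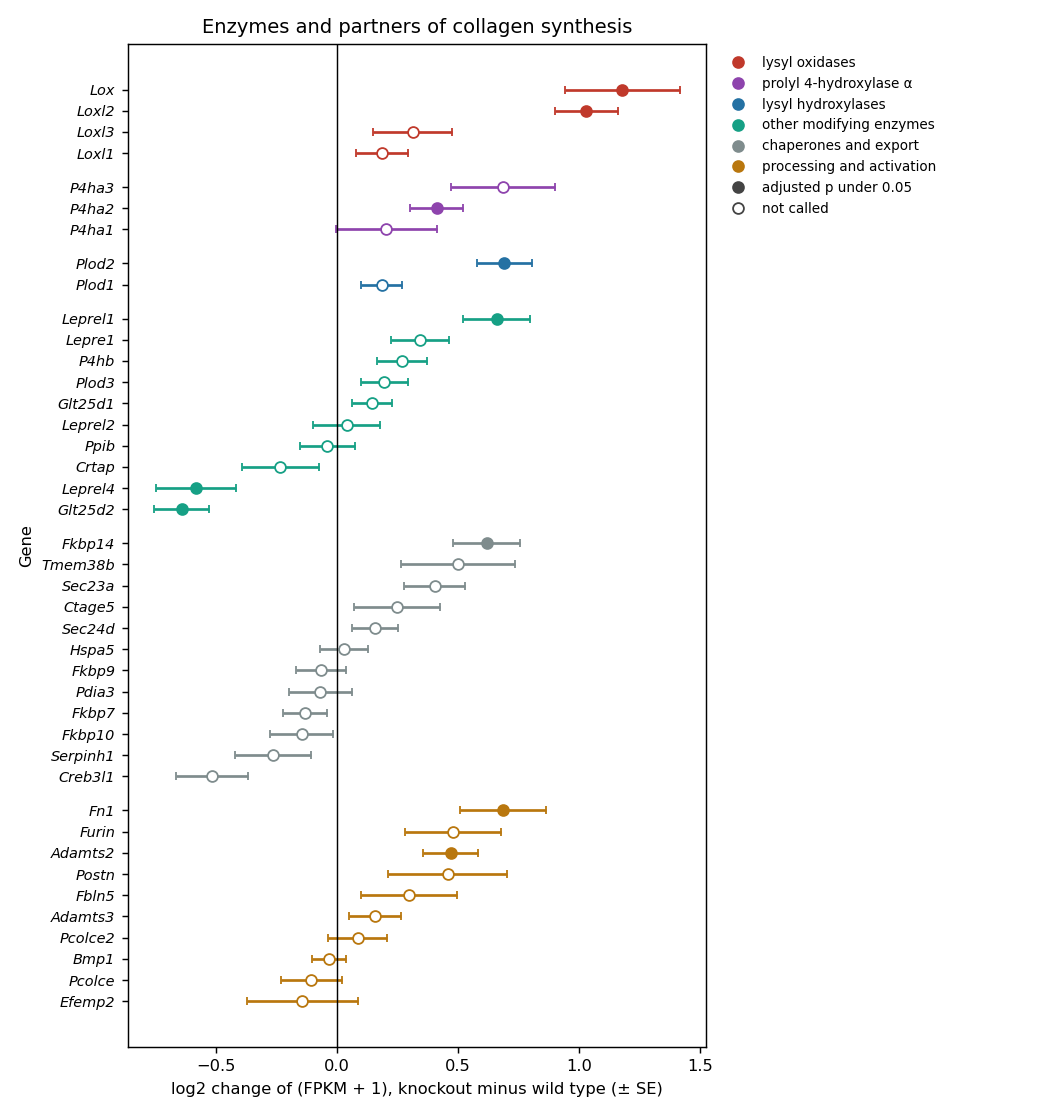
Log2 change of (FPKM + 1), knockout minus wild type, ± SE for the tested members and the tested genes of 3 lists of enzymes and partners, by colour; filled points passed the test and open points did not. Lox (1.18) and Loxl2 (1.03) lie farthest right, and Glt25d2 (-0.64) farthest left.

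The collagen substrates did not all move with the enzymes. Of 7 tested fibril-forming collagens 2 rose and 0 fell. The abundant ones were not called and had lower means in knockout hearts. Col3a1 was at 404 ± 50.6 FPKM in wild type hearts, compared with 305 ± 67.98 FPKM in knockouts (adjusted p = 0.123), Col1a1 at 113 ± 13.0 and 87.7 ± 19.6 FPKM (adjusted p = 0.140) and Col1a2 at 149 ± 11.02 and 135 ± 30.7 FPKM (adjusted p = 0.487). The raised genes were Col27a1, at 1.29 ± 0.0602 FPKM in wild type hearts, compared with 4.18 ± 0.879 FPKM in knockouts (adjusted p = 0.00105), and Col5a2, which rose 1.38-fold (adjusted p = 0.0372). The call of Col5a2 was lost on omission of wild type replicate 1, 2 or 4 or knockout replicate 2 or 3 (adjusted p up to 0.106 over the alternatives with no minimum change).

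Of 8 tested basement membrane collagens 3 rose and 1 fell. Col4a1, a chain of the main collagen IV network, was at 264, 259, 275 and 239 FPKM across wild type hearts, against 410, 363, 360 and 347 FPKM across knockout hearts, with no overlap (1.43-fold, adjusted p = 0.00429). Its partner chain Col4a2 rose 1.49-fold to 252 ± 20.5 FPKM (adjusted p = 0.00361), and Col18a1 rose 1.78-fold (adjusted p = 0.00380). Col15a1 fell 2.39-fold to 47.8 ± 23.3 FPKM (adjusted p = 0.0376). Its call was lost in each omission of a wild type library and without knockout replicate 2 or 3. Of 9 tested collagens of other classes, 3 rose and 1 fell. Col8a1 rose 4.18-fold to 15.8 ± 4.51 FPKM (adjusted p = 0.000800), Col9a2 3.73-fold to 3.81 ± 1.68 FPKM and Col12a1 3.34-fold to 3.95 ± 1.98 FPKM. Col6a6 fell 2.40-fold (adjusted p = 0.0196), a call lost on omission of wild type replicate 1 or 3.

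Elastic fibre genes, whose core is another substrate of lysyl oxidases, moved in both directions, with 4 of 14 raised and 3 lowered. Eln, which encodes elastin, was at 322, 228, 210 and 183 FPKM across wild type hearts, against 317, 874, 490 and 514 FPKM across knockout hearts. Knockout replicate 1 lay just under wild type replicate 1, and knockout replicate 2 was the highest, as for Lox. Eln rose 2.33-fold (log2 change 1.15 ± 0.29, adjusted p = 0.0345), a call lost on omission of wild type replicate 2, 3 or 4 or knockout replicate 3 or 4 (adjusted p up to 0.123 over the alternatives with no minimum change). Fbln2 rose 1.87-fold (adjusted p = 0.00700), and the other raised genes, named after their values were seen, were Fbn1 (adjusted p = 0.0179) and Ltbp2 (adjusted p = 0.0193). The calls of Fbn1 and Ltbp2 were lost on omission of wild type replicate 2 or 4, and the count of raised elastic fibre genes was 1 without either library. Fbln1 fell 1.70-fold (adjusted p = 0.00171), Ltbp4 1.498-fold (adjusted p = 0.00202) and Ltbp1 1.58-fold (adjusted p = 0.00628).

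**Figure D4:**
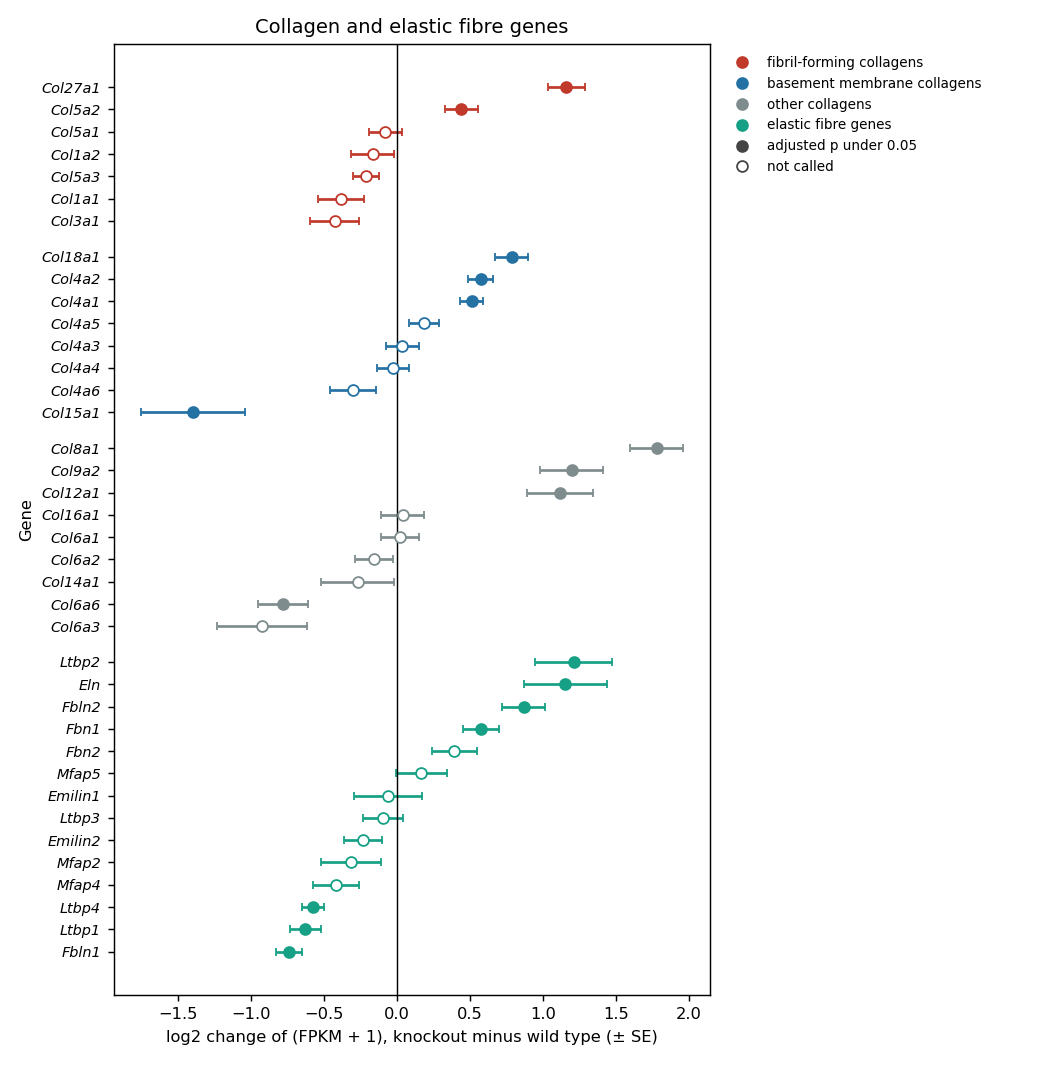
Log2 change of (FPKM + 1), knockout minus wild type, ± SE for tested collagen and elastic fibre genes, by class in colour; filled points passed the test and open points did not. Col8a1 (1.78) lies farthest right and Col15a1 (-1.40) farthest left, and the abundant fibril-forming genes Col1a1, Col1a2 and Col3a1 are open points left of 0.

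Set against collagen transcripts, enzyme levels were higher in knockout hearts for fibril-forming chains. These ratios of sums are dominated by a few abundant collagens and are given without a test. Per 100 FPKM of fibril-forming collagens, lysyl oxidases summed to 8.24 ± 0.609 FPKM in wild type hearts, compared with 17.9 ± 4.01 FPKM in knockouts, prolyl 4-hydroxylase alpha subunits to 3.49 ± 0.480 and 5.63 ± 0.910 FPKM, and Plod1 with Plod2 to 7.14 ± 0.408 and 10.8 ± 1.88 FPKM. None of these 3 ratios overlapped between groups. Knockout replicate 4 had the highest of each (23.7, 6.66 and 13.3 FPKM). Its fibril-forming sum was 437 FPKM, against 631 to 716 FPKM in the other knockout hearts. The alpha subunit sums alone overlapped, at 21.1 to 30.2 FPKM in wild type and 29.1 to 38.1 FPKM in knockout hearts. Those of lysyl oxidases (55.6 to 67.1 against 97.5 to 126 FPKM) and of Plod1 with Plod2 (49.7 to 55.8 against 57.9 to 71.9 FPKM) did not. Per 100 FPKM of basement membrane collagens, lysyl oxidases summed to 9.31 to 10.99 FPKM in wild type and 12.2 to 17.7 FPKM in knockout hearts. The same ratios of the alpha subunits (3.77 to 4.98 against 4.14 to 5.24 FPKM) and of Plod1 with Plod2 (8.59 to 9.07 against 8.24 to 9.57 FPKM) overlapped.

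Markers of the cells that make these enzymes moved in part, where 12.2% of all tested genes were called in either direction. Of 10 fibroblast markers 1 rose (Mgp) and 3 fell (Dcn, Lum and Dpt), with a summed level of 1236 to 1383 FPKM in wild type and 1151 to 1486 FPKM in knockout hearts. Of 10 endothelial markers 1 rose (Eng) and 2 fell (Tek and Tie1), with sums of 636 to 722 and 629 to 660 FPKM. Of 6 smooth muscle markers 1 rose (Tagln) and 1 fell (Smtn), and their sums were 483 to 933 and 422 to 736 FPKM. Among 5 epicardial markers 1 rose, Wt1, and the sums were 33.1 to 48.3 and 34.6 to 53.3 FPKM. No marker was called among the 5 pericyte genes or the 5 tested macrophage genes. Of 7 cardiomyocyte genes 0 rose and 1, Tnni3, fell, and their sums, the highest of these lists, were 26388 to 31898 and 23279 to 27882 FPKM. Such sums are dominated by a few abundant genes, such as Acta2 in smooth muscle (363 to 825 FPKM in wild type hearts). The median log2 change was -0.19 for fibroblast, -0.21 for endothelial, -0.30 for smooth muscle and 0.05 for pericyte markers. It was 0.04 for epicardial, -0.01 for macrophage and 8.8e-05 for cardiomyocyte markers. The part of these marker shifts in the enzyme values was not tested.

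**Figure D5:**
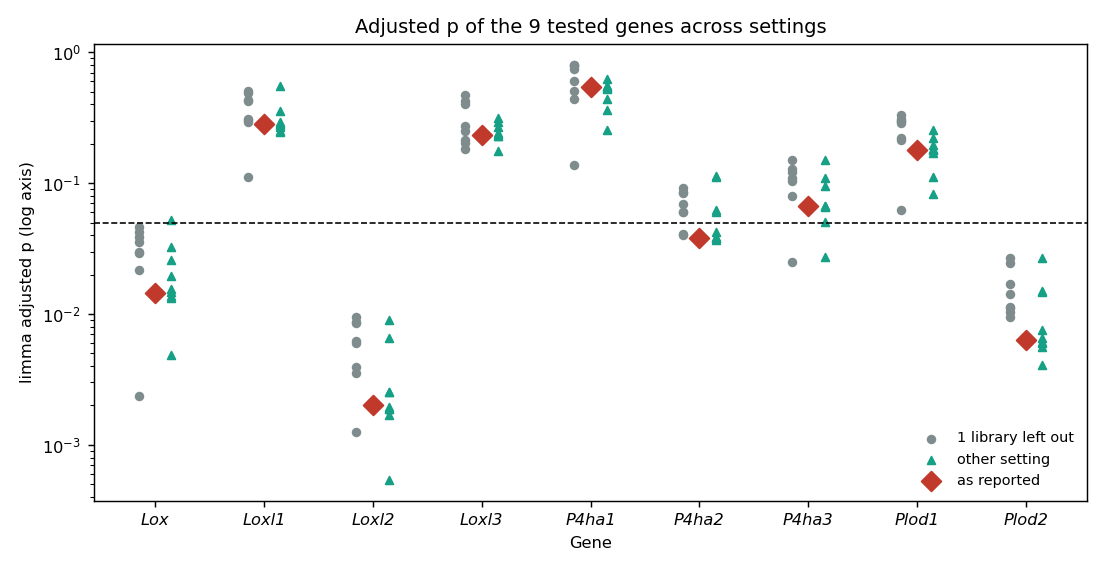
Limma adjusted p on a log axis of the 9 tested members as reported (red diamonds), with 1 library left out (grey circles) and under other settings except the minimum change of 1.5-fold (green triangles); the dashed line is 0.05. Loxl2 and Plod2 stay under the line throughout, Lox exceeds it at 1 triangle (0.0523), and P4ha2 and P4ha3 lie on both sides.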

How the data were processed

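RNA of whole hearts was made into 8 TruSeq libraries, per the labels' protocols. Per the submitters' processing notes, TopHat2 (alignment) and Cufflinks were used with build mm10, without versions. The deposited values, not named in the table, were read as FPKM on a linear scale. The authors' columns appear quantile normalised, since the top 39 ranks were identical across the 8 libraries, so depth and counting error cannot be recovered. No columns were identical.

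Genes averaging 1 FPKM or more were transformed to log2(FPKM + 1) and fitted with limma 3.58.1 in R 4.3.3 (lmFit, eBayes with trend and robust options, Benjamini-Hochberg over 11390 genes). Exact permutation tests and figures used Python 3.11.15 with pandas 2.3.3 and matplotlib 3.10.9. Tested on simulated data with 11390 genes, the fit for knockout against wild type found 65.7% of the 67 genes set at 1.5-fold, 85.1% of those set at 2-fold (67) and 97.0% of those set at 4-fold (66), while 5 of its 170 calls were wrong. The simulated noise was drawn for each gene on its own, with no effect shared across a library, and folds were set on the FPKM + 1 scale. These rates may therefore not hold for the real libraries. Positions are those of GENCODE M21 (mm10). Named genes were the 10 members, 9 fixed partner or substrate genes, the targeted genes and up to 4 called genes with the smallest adjusted p per list. Members and lists were chosen with earlier results of these data known. Outside this rule, Fbn1, Ltbp2 and the called cell type markers were named after their values were seen. Mia3 and Col26a1 were not matched in the table. Replicate numbers were not treated as pairs, since deviations of same-numbered samples correlated at -0.226 to 0.102. Alternatives changed the pseudocount, filter, scaling, variance model, weights, minimum change and replicate block, or left out libraries.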

Additional observations from a re-analysis of the deposited data

Results flagged for a closer look

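Of 78 sets of 4 values (39 named genes in each group), 5 held 1 library whose gap to the nearest other value, divided by the range of the group, exceeded Dixon's 95% critical value for 4 samples. Chance flags about 1 in 20 such sets. No member gene was among them. In Col3a1 wild type replicate 3 stood at 480 FPKM against 373 to 387 FPKM in the other wild type hearts (gap over range 0.863), and knockout replicate 4 at 204 FPKM against 330 to 352 FPKM in the other knockout hearts (0.849). In Col18a1 knockout replicate 4 was at 23.7 FPKM against 31.8 to 33.0 FPKM (0.873). In Leprel1 wild type replicate 4 was at 1.04 FPKM against 1.74 to 1.85 FPKM (0.861). In Col12a1 knockout replicate 2 was at 6.90 FPKM against 2.69 to 3.18 FPKM (0.885).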

How the results depend on the processing

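Loxl2 and Plod2 kept their call and direction under each alternative except the minimum change of 1.5-fold, under which 0 members and 37 genes in all were called. The adjusted p otherwise ran from 0.000539 to 0.00946 for Loxl2 and from 0.00406 to 0.0266 for Plod2. Leaving out 1 library gave 3 to 4 called members, not always the same ones. Without knockout replicate 1, P4ha3 was called (adjusted p = 0.0248) and P4ha2 was not (adjusted p = 0.0599). With 1 library left out, the number of genes called ran from 574, when wild type replicate 2 was omitted, to 1819, when knockout replicate 1 was. It was also over 1.5 times lower on omitting wild type replicate 3 (838), wild type replicate 4 (742), knockout replicate 2 (759) or knockout replicate 3 (896). Without both replicates 4, 2 members were called. Same-numbered samples share a number and no stated pairing, and 2 of 8 samples correlated best with their own number. With the replicate block 613 genes and 3 members were called, without P4ha2 (adjusted p = 0.112). For paralog pairs, 0 of 10 passed under each pseudocount, where at most 5 reached the smallest p and so no pair could pass. Those with an unadjusted p under 0.05 numbered 5 with 1 or 5 FPKM, 4 with 0.1 FPKM and 3 with none. Log2 changes of low genes moved with the pseudocount, that of P4ha3 from 0.24 (5 FPKM) to 1.24 (0.1 FPKM). Depth is unknown, so counting error could not be set beside the low values of Loxl4, P4ha3 and Loxl3.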

Other observations

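In which knockout heart a gene was highest varied between the gene lists, a pattern seen after the values were known and given without a test. Of all tested genes 17.2% had their highest knockout value in replicate 2 and 35.5% in replicate 4. Knockout replicate 2 was highest for 5 of 9 tested members, 7 of 10 other collagen-modifying enzymes, 6 of 10 processing and activation genes, 4 of 7 fibril-forming, 4 of 8 basement membrane and 7 of 9 other collagens, and 8 of 14 elastic fibre genes, Eln among them. It was highest for 3 of 12 chaperone and export genes and 1 of 6 copper and ascorbate genes. Among the 5 members, P4ha3 passed the filter only through this library, with a mean of 1.13 FPKM and 0.850 FPKM without knockout replicate 2. Knockout replicate 4 was highest for 3 genes in each of the chaperone, processing and copper lists, for 1 basement membrane collagen and for 0 genes in the remaining 5 lists. These genes share libraries, so the counts describe hearts and not independent events.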
